A study of Arabidopsis thaliana with 24 samples.

Results

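Etiolated Arabidopsis seedlings were compared for how loss of DCP5 alters the light change of polysome-bound RNA. For each probe set the quantity was a light-by-genotype contrast: the change with light in dcp5-1 minus the change with light in control, computed on the 12 polysomal arrays of the 24 in the series. A contrast above 0 means that the log2 change with light was more positive, or less negative, in dcp5-1. All 22746 probe sets that are not array controls were members, and 13513 of them carry 1 gene name in the probe table used here. The 4 groups held 3 biological replicates each: control in darkness, control after 4 h of white light, dcp5-1 in darkness and dcp5-1 after 4 h of white light. Both genotypes are in the Col-0 ecotype, all seedlings were 4 days old, and RNA came from aerial parts. The mutant dcp5-1 carries a lesion in DCP5, and it is the 1 mutant line that the labels name. Total RNA of the same 4 conditions was hybridised to the other 12 arrays and serves here as the comparison.

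DCP5 is a component of processing bodies, cytoplasmic granules in which mRNAs are held out of translation or enter decapping and decay. A seedling grown in darkness elongates its hypocotyl by loosening and extending cell walls and keeps its plastids undeveloped. Light starts photomorphogenesis: elongation slows, chlorophyll and the photosynthetic complexes are built, flavonoid pigments are made, and many stored or newly made mRNAs join ribosomes. Polysome-bound RNA samples the mRNAs that carry ribosomes, so its light change combines a change in mRNA amount with a change in ribosome loading.

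The probe table names no probe set for DCP5, so its level was not analysed here. The nuclear antenna genes LHCB4.1 and LHCB4.2, expressed in green aerial tissue, were among the bright genes, with mean log2 signals of 12.8 and 12.6 over all arrays. Of 12 root hair markers 2 are in the table, EXPA7 and EXPA18, and no listed pollen marker is. EXPA7 lay between -6.03 and -2.66 log2 units from the array median on the control polysomal arrays and between -4.63 and -1.197 in dcp5-1, below the median throughout. EXPA18 lay between -3.91 and -1.27 in control and between -0.80 and -0.26 in dcp5-1, and in light it was higher in dcp5-1 by 1.94 (limma adjusted p = 0.011). Their contrasts were -0.78 ± 1.33 and 0.71 ± 0.60 (SE) and did not pass. Their part in the results below was not tested.

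The deposited polysomal arrays differ in overall level by a factor per array, which moves every probe set alike. Their lowest log2 values were -2.87 to -1.67 in dark control and -1.07 to -0.71 in light control. In dcp5-1 they were -1.52 to -1.06 in darkness and -1.05 to -0.51 in light, against 0 on the total-RNA arrays. Array medians of the deposited log2 values were 4.40 to 5.62 in dark control, 6.18 to 6.57 in light control, 5.73 to 6.27 in dark dcp5-1 and 6.24 to 6.75 in light dcp5-1. Dark control stood lowest and overlapped none of the other groups. The contrast of these medians was -1.27, -0.37 and -1.04 in replicates 1, 2 and 3, a mean of -0.90 ± 0.47 (SD, n = 3). An exact two-sided sign-flip test gave p = 0.25, the smallest value 3 pairs allow. Each array was therefore centred on its own median, and every level and contrast below is relative to that median. Without centring, the median contrast of all probe sets was -0.88 in place of 0.01.

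After centring, few probe sets passed the test of the light-by-genotype contrast. Of 22746 probe sets, 8 passed at a limma adjusted p of 0.05 (0.0352%), 6 above 0 (0.0264%) and 2 below 0 (0.00879%). An unadjusted p under 0.05 was reached by 1037 (4.56%). Without centring 26 passed, 0 above and 26 below 0, and 2 of the 8 were among them, ECS1 and AT2G45920. The contrasts of EXPA9, XTH33, ATSBT5.2 and AT4G30170 were then 1.298, 1.01, 0.78 and 0.76, with adjusted p of 0.087, 0.153, 0.174 and 0.203. The light change itself passed in 4773 probe sets in control (21%) and 3383 in dcp5-1 (14.9%), counts of 2 tests that do not show a difference between the genotypes. The 6 passing probe sets with 1 gene name were EXPA9, XTH33, ATSBT5.2, AT4G30170, ECS1 and AT2G45920. All 6 probe sets with a positive contrast, the 2 unnamed ones included, were lowered by light on the total-RNA arrays (16.4% of all probe sets). ECS1 was raised by light there (13.2% of all). In 7 of the 8 the size of the light change was smaller in dcp5-1 than in control, a share that was not computed over all probe sets. The 8 were chosen on the difference of these same 2 light changes, so the count is not separate support. In bulk RNA, fewer cells of a type and less RNA per cell cannot be told apart in any of these values.

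EXPA9 is an alpha-expansin, a protein that loosens cell walls during growth. Its level, in log2 units from the array median, was 3.24, 3.18 and 3.48 on the dark control arrays and -0.50, -0.36 and -0.57 on the light control arrays. In dcp5-1 it was 2.23, 1.38 and 1.89 in darkness and 0.24, 0.38 and 0.13 in light. The dcp5-1 arrays thus lay inside the span of the control arrays, lower than control in darkness and higher in light, with no overlap between any groups. The light change was -3.78 ± 0.20 (SE) in control and -1.58 ± 0.20 in dcp5-1, 13.7-fold and 2.99-fold down. The contrast was 2.19 ± 0.29 (adjusted p = 0.0014), with values of 1.74, 2.55 and 2.29 in the 3 replicates.

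XTH33 is a xyloglucan endotransglucosylase/hydrolase, an enzyme that cuts and rejoins wall hemicellulose. Its levels were 2.55, 2.90 and 3.23 in dark control and 0.58, 0.48 and 0.55 in light control. They were 2.14, 1.987 and 2.77 in dark dcp5-1 and 1.998, 1.88 and 1.66 in light dcp5-1. Light control stood apart from all other arrays, and the dark and light arrays of dcp5-1 met at 1.987 and 1.998. Light lowered XTH33 by 2.36 ± 0.20 in control, while the change in dcp5-1 was -0.45 ± 0.20 (adjusted p = 0.157). The contrast was 1.90 ± 0.29 (adjusted p = 0.0052, and 0.0761 on the polysomal arrays alone), and the genotypes differed by 1.31 in light (adjusted p = 0.00059) and by -0.59 in darkness (adjusted p = 0.149).

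ATSBT5.2 belongs to the subtilisin-like serine proteases, a largely secreted family. It stood at 1.87, 2.13 and 1.64 in dark control, -0.49, -0.69 and -0.76 in light control, 2.35, 2.24 and 2.14 in dark dcp5-1 and 1.38, 1.49 and 1.29 in light dcp5-1. Light control was again the group that stood apart, the other 3 groups lying at 1.29 or higher. The light change was -2.53 ± 0.17 in control and -0.86 ± 0.17 in dcp5-1. The contrast was 1.67 ± 0.24 (adjusted p = 0.0032), and in light the level was 4.09-fold higher in dcp5-1 than in control. Without centring the light change in dcp5-1 was -0.48 (limma adjusted p = 0.338).

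The locus AT4G30170 had one of the larger light changes of the genes that passed. Dark arrays stood at 4.62, 4.45 and 4.42 in control and at 4.35, 4.12 and 4.35 in dcp5-1, close together with those of dcp5-1 slightly lower. Light arrays stood at -0.39, 0.33 and 0.19 in control and at 1.15, 1.46 and 1.82 in dcp5-1, with no overlap. Light thus lowered it 21.9-fold in control and 6.96-fold in dcp5-1, a contrast of 1.65 ± 0.29 (adjusted p = 0.026). It did not pass on the polysomal arrays alone (adjusted p = 0.157) or without the variance trend (adjusted p = 0.116). The genotypes differed by 1.43 in light (adjusted p = 0.00022) and by -0.22 in darkness (adjusted p = 0.713).

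ECS1 had the largest contrast below 0 among the probe sets that passed. It lay below the array median in dark control, at -0.80, -1.10 and -0.40, and rose to 4.91, 5.27 and 5.41 in light control. The dcp5-1 arrays stood at 2.51, 2.75 and 2.53 in darkness and at 4.91, 4.04 and 4.99 in light. The light groups of both genotypes met at 4.91, whereas the dark groups were far apart. The dark level was 10.3-fold higher in dcp5-1, and light raised ECS1 62.4-fold in control and 4.14-fold in dcp5-1. The contrast was -3.91 ± 0.44 (adjusted p = 0.00022), with -3.31, -5.08 and -3.35 in the 3 replicates.

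AT2G45920 had a pattern of its own. It stood at -0.75, -1.35 and -1.11 in dark control and at -0.88, -0.86 and -0.96 in light control, 2 groups that overlapped. Levels in dcp5-1 were -0.28, -0.46 and -0.42 in darkness and -2.44, -1.60 and -2.39 in light. Light lowered it by 1.76 ± 0.25 in dcp5-1, while the change in control was 0.17 ± 0.25. The contrast was -1.93 ± 0.35 (adjusted p = 0.043), and all 12 arrays lay below their median. Fitted on the polysomal arrays alone it did not pass (adjusted p = 0.740, and 0.296 with the block). Without centring its light change in control was 1.45 (limma adjusted p = 0.0014).

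**Figure D1:**
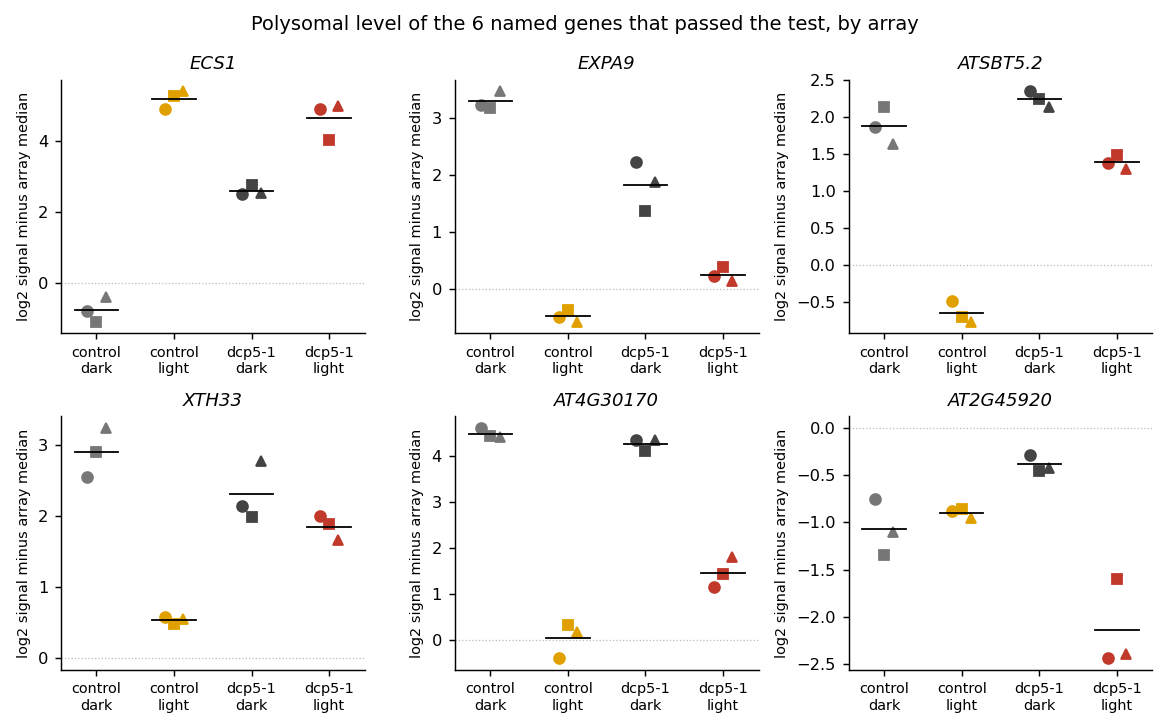
Levels of the 6 named genes that passed the test on the 12 polysomal arrays (log2 signal minus the array median on the vertical axis, with a scale of its own in each panel). Circles, squares and triangles are replicates 1, 2 and 3, and lines are group means. EXPA9, XTH33, ATSBT5.2 and AT4G30170 are lowest in light control, and ECS1 is lowest in dark control.

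These calls depended on the replicates. Without all arrays of replicate number 1, 2 or 3 the count was 4, 0 and 1, with 2 arrays left in each group, and 935 probe sets had an unadjusted p under 0.05 in the limma fit without number 2. The adjusted p of ECS1 was 0.39 without number 2, that of EXPA9 0.39 without number 2 and 0.36 without number 3, and those of ATSBT5.2 and XTH33 were 0.063 to 0.731 without any one number. Leaving out single arrays ended none of the calls of these 4 genes. AT4G30170 kept its call in 4 of the 12 fits without 1 polysomal array, those without dark or light dcp5-1 replicate 1 and light control replicates 2 or 3, and its highest adjusted p was 0.104. AT2G45920 kept it in 2 of 12, those without dark control replicate 1 and light dcp5-1 replicate 2, with a highest adjusted p of 0.139. The number of calls was 5 without dark control, dark dcp5-1 or light dcp5-1 replicate 3.

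The same contrast on the total-RNA arrays, which share no array with the polysomal ones, passed in 7 probe sets (0.0308%), 6 above 0 (0.0264%) and 1 below 0 (0.0044%), and 893 had an unadjusted p under 0.05 (3.93%). The total-RNA contrast had the sign of the polysomal contrast in all 8 probe sets that passed there, and 6 of the 8 passed in both fractions. Both fractions represent the same 4 conditions and a change in mRNA amount enters both, so shared signs are not independent support. Over all probe sets the sign was shared by 59.9%, over the brighter 75% by 62.8%, and over the 2644 probe sets that light changed by a log2 of 1 or more on the total-RNA arrays by 74.5%. In total RNA the contrast was -3.45 ± 0.44 for ECS1, 1.84 ± 0.29 for EXPA9, 1.78 ± 0.29 for XTH33, 1.55 ± 0.24 for ATSBT5.2 and 1.91 ± 0.29 for AT4G30170. The polysomal minus the total value of these 5 ran from -0.46 to 0.36. AT2G45920 was the exception, with -0.38 ± 0.35 in total RNA.

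The difference between the fractions was tested directly. Of 22746 probe sets, 0 passed for the polysomal minus the total-RNA contrast (0%), and limma gave 364 an unadjusted p under 0.05 (1.6%). For AT2G45920 this difference was -1.55 ± 0.50 (unadjusted p = 0.0049), and it did not pass after adjustment. For ECS1 it was -0.46 ± 0.63 and for EXPA9 0.36 ± 0.41. Relative to the array medians, a contrast of polysomal RNA that exceeds the one in total RNA was therefore not detected for any single gene with 3 replicates. Centring takes out any difference between the fractions that all probe sets share. Without centring 0 also passed in limma, but 2088 had an unadjusted p under 0.05. The median difference of all probe sets was then -0.88 in place of -0.001. Across probe sets, which are not independent replicates, the 2 contrasts correlated at r = 0.12 over all, 0.36 over the brighter 75% and 0.48 over the light-changed ones.

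**Figure D2:**
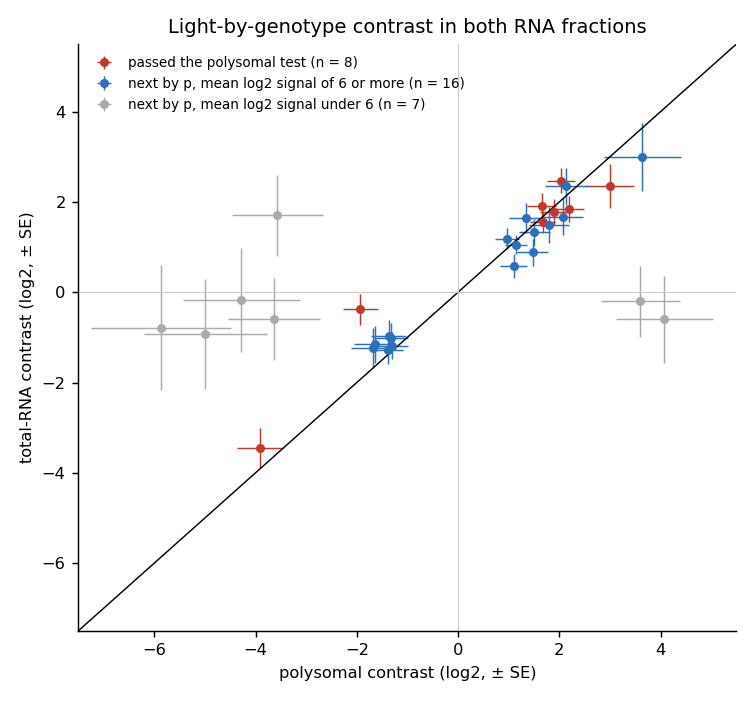
Light-by-genotype contrast of polysomal RNA (horizontal) against total RNA (vertical), both in log2 units with standard errors, for the 8 probe sets that passed and for 23 named genes with the next smallest p in either direction. The line marks equal contrasts. ECS1 (-3.91 and -3.45) lies near the line and AT2G45920 (-1.93 and -0.38) off it, and the 7 genes with a mean log2 signal under 6 have a total-RNA contrast nearer to 0 than their polysomal one. All were chosen by the polysomal p, a choice that by itself favours the larger polysomal value.

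Arrays of the same replicate number deviated together in the brighter probe sets, and with replicate number as a block in the limma fit 36 probe sets passed, 24 above and 12 below 0. The 36 held all 8 that passed without the block. Of the 24 above 0, 21 were lowered by light on the total-RNA arrays (16.4% of all probe sets). Of the 12 below 0, 11 were raised by light there (13.2% of all). In 33 of the 36 the size of the light change was smaller in dcp5-1, a share that was not computed over all probe sets. The 36 too were chosen on the difference of these light changes, so the count is not separate support. In all 36 the total-RNA contrast had the same sign, against 59.9% of all probe sets. The genotype difference passed in 536 of all probe sets in darkness (2.36%) and 644 in light (2.83%). Of the 36 it passed in darkness alone in 12, in light alone in 14, in both in 3 and in neither in 7, without the block. The contrast equals the genotype difference in light minus that in darkness, so these counts follow in part from the choice of the 36.

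ARL, an ARGOS-like gene that promotes organ growth through cell expansion, was among those that passed with the block only. It stood at 4.61, 4.43 and 4.68 in dark control and at 2.39, 1.69 and 2.08 in light control. In dcp5-1 it stood at 4.42, 4.14 and 4.11 in darkness and at 2.92, 2.78 and 2.86 in light. The light arrays of dcp5-1 all exceeded those of control. The contrast was 1.15 ± 0.22, with an adjusted p of 0.062 without and 0.0030 with the block.

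AT1G70270 had the largest contrast of the genes that passed with the block only, 3.64 ± 0.76. It stood at 1.64, 2.65 and 3.60 in dark control and at -2.19, -0.32 and 0.06 in light control. Its dcp5-1 arrays stood at -0.86, -0.83 and 0.29 in darkness and at -0.50, -0.13 and -0.19 in light. Dark control was high and the other 3 groups overlapped, so the light change was -3.45 ± 0.54 in control and 0.19 ± 0.54 in dcp5-1. The adjusted p was 0.109 without and 0.00033 with the block, and the standard error with the block was 0.47.

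Other loci also had contrasts above 0 that passed with the block. AT5G57760 stood at 3.74, 4.00 and 4.73 in dark control, -0.06, -0.69 and -0.11 in light control, 2.98, 3.67 and 3.53 in dark dcp5-1 and 1.203, 0.74 and 1.33 in light dcp5-1, a contrast of 2.14 ± 0.42. It passed with the block (adjusted p = 0.011, 0.077 without) and in total RNA without it (2.34 ± 0.42, adjusted p = 0.042). AT2G14900, one of the brightest, fell by 2.54 ± 0.22 in control and by 1.04 ± 0.22 in dcp5-1, and in dcp5-1 it was higher by 2.04 in light (adjusted p = 7.2e-06) and by 0.53 in darkness (adjusted p = 0.252). Contrasts above 0 that passed with the block were also those of AT4G11290 (2.07), AT2G19970 (1.80), AT2G17300 (1.48) and AT4G36010 (1.34). Of these, AT2G17300 did not share the fall with light: its change was -0.61 in control and 0.87 in dcp5-1.

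Contrasts below 0 that passed with the block belonged mainly to genes with a smaller rise in dcp5-1. AT1G53540 stood at -1.15, -1.18 and -0.88 in dark control and at 0.23, 0.16 and 0.55 in light control. Levels in dcp5-1 were 1.27, 1.60 and 1.47 in darkness and 1.12, 1.66 and 1.56 in light. It was above all control arrays in both conditions, and the light change was 1.39 ± 0.21 in control and -0.00 ± 0.21 in dcp5-1. AT1G28570 rose by 2.47 in control and 1.17 in dcp5-1, AT2G43550 by 5.05 and 3.40, and AT2G25510 by 3.54 and 1.87. Outside the naming rule, and named after their values were seen, the block fit also passed AT1G62510 (-1.61), AT5G63180 (1.03), UPB1 (1.07), a bHLH transcription factor known from root growth, and PDF2.5 (2.19), a plant defensin.

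The light change of polysomal RNA was next compared over whole sets of light-changed probe sets. These were chosen on the total-RNA arrays alone, as the mean light change of both genotypes at an adjusted p of 0.05, so that no polysomal array entered the choice. Light changed 6743 probe sets there (29.6%), of which it raised 3006 (13.2%) and lowered 3737 (16.4%). In the raised set the median polysomal light change was 0.96 in control and 0.82 in dcp5-1, and the median contrast was -0.16. Its median was -0.31, -0.04 and -0.11 in replicates 1, 2 and 3. In the lowered set the median light change was -0.74 in control and -0.61 in dcp5-1, and the median contrast was 0.15, with 0.16, 0.14 and 0.16 in the replicates. The 16003 other probe sets had a median contrast of 0.01. The contrast lay below 0 in 1994 raised probe sets (66.3%), against 48.7% of all probe sets. It lay above 0 in 2584 lowered ones (69.2%), against 51.3% of all.

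The lowered set had larger contrasts where light had a larger effect. Among the 1218 probe sets lowered by a log2 of 1 or more the median contrast was 0.33, among the 335 lowered by 2 or more 0.51, and among the 99 lowered by 3 or more 0.67. The light change itself grew alongside. Its median in these bins was -1.54, -2.61 and -3.74 in control, and -1.19, -2.10 and -3.15 in dcp5-1. In the last bin the replicates gave 0.81, 0.59 and 0.48. There 82 of the 99 (82.8%) had a contrast above 0, against 51.3% of all probe sets. The raised set did not have the same evenness over replicates: among the 157 probe sets raised by 3 or more the median was -0.31, with -0.68, -0.09 and -0.24. Without light control replicate 1 the median contrast of the whole raised set, relative to all probe sets, was -0.08 in place of -0.18. That of the lowered set stayed between 0.10 and 0.16 when any array or replicate number was left out.

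**Figure D3:**
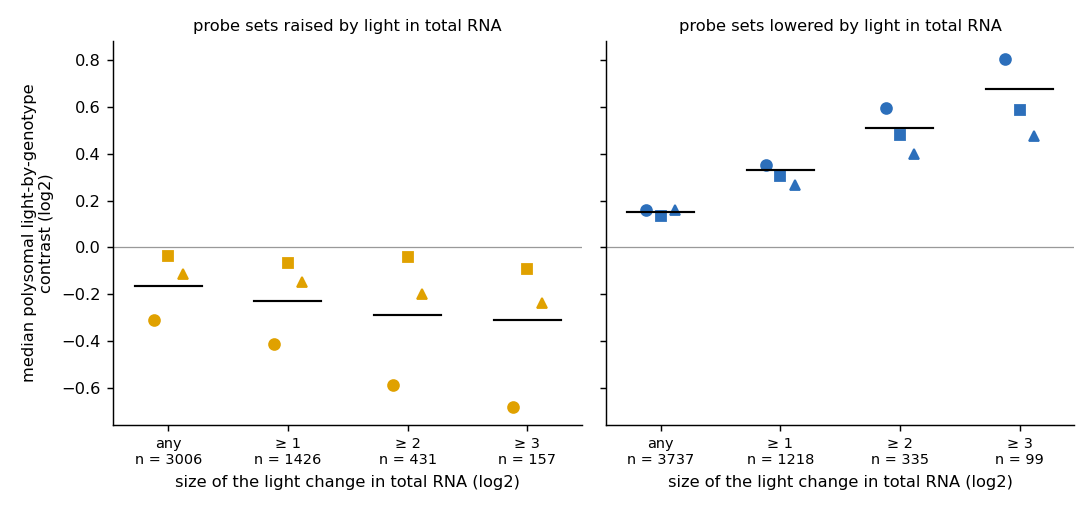
Median polysomal light-by-genotype contrast (log2, vertical) of probe sets raised (left) or lowered (right) by light on the total-RNA arrays, by the size of that change. Circles, squares and triangles are replicates 1, 2 and 3, and lines are medians of the fitted contrast. All points are below 0 on the left and above 0 on the right, and the lowered set runs from 0.15 to 0.67.

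Both genotype differences that make up the contrast were present in these medians. Among the 335 probe sets lowered by 2 or more, dcp5-1 was lower than control in darkness, with a median difference of -0.35, and higher in light, with 0.24. Among the 431 raised by 2 or more it was higher in darkness, with 0.19, and lower in light, with -0.09. The contrast of total RNA in these 2 sets was 0.51 and -0.34, beside 0.51 and -0.29 in polysomal RNA. Of the 1426 probe sets raised by 1 or more on the total-RNA arrays, 83.6% rose in control and 75.7% in dcp5-1 polysomal RNA at an adjusted p of 0.05. Over all probe sets these shares were 9.83% and 7.43%. Of the 1218 lowered by 1 or more, 76.9% fell in control and 63.8% in dcp5-1, against 11.2% and 7.45% of all probe sets. Such counts of 2 tests do not show a difference between the genotypes.

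The polysomal light changes of the 2 genotypes, which share no array, correlated at r = 0.93 over the 2644 probe sets changed by 1 or more on the total-RNA arrays and at 0.64 over all. The 2644 were chosen for a large mean light change of both genotypes, a choice that by itself favours a high r. Between replicate numbers the contrast correlated at r = 0.24 to 0.26 over the 2644 and at 0.01 to 0.05 over all probe sets. These are descriptions across probe sets of one experiment.

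**Figure D4:**
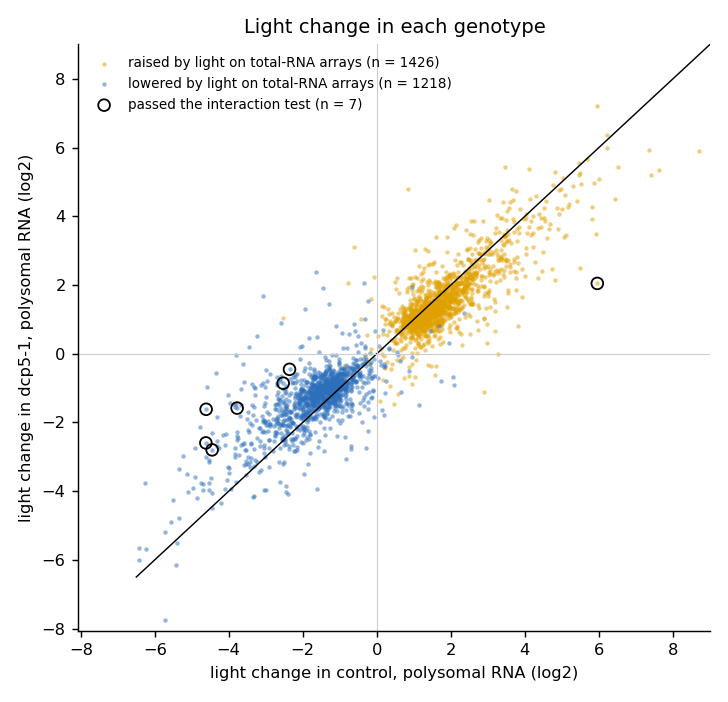
Light change of polysomal RNA in control (horizontal) and dcp5-1 (vertical), in log2 units, for the 2644 probe sets changed by a log2 of 1 or more on the total-RNA arrays. The line marks equal changes, and open circles are 7 of the 8 probe sets that passed the interaction test. The 6 circles at the lower left lie above the line and ECS1, at 5.96 and 2.05, below it.

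Genes of cell wall extension held 2 of the 6 named genes that passed. Of 28 expansins and xyloglucan endotransglucosylases measured, 2 passed the interaction test, EXPA9 and XTH33 (0.0352% of all probe sets). An unadjusted p under 0.05 was reached by 6 with a contrast above 0 (2.48% of all probe sets) and by 0 below 0 (2.08%). In control 13 of the 28 fell with light (11.2% of all probe sets) and 3 rose (9.83%). In dcp5-1 10 fell (7.45%) and 4 rose (7.43%). In darkness 1 was higher (1.36%) and 1 lower (0.994%) in dcp5-1. In light 6 were higher and 0 lower in dcp5-1 than in control (1.91% and 0.919% of all probe sets). Those higher in light include EXPA18, the root hair marker above. They also include XTH16, named after its values were seen, which was higher in darkness too (1.23, limma adjusted p = 0.0048), with a contrast of -0.27. The median contrast of the list was 0.25, relative to 0.01 for all probe sets. Without dark dcp5-1 replicate 1 it was 0.01 relative to all probe sets, and without the dimmest 25% of probe sets it was 0.46.

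EXPA8 and EXPA4, further alpha-expansins, had positive contrasts that passed neither without nor with the block over all probe sets. EXPA8 stood at 5.03, 4.91 and 4.75 in dark control and 3.47, 2.96 and 3.36 in light control, and at 4.95, 4.33 and 4.66 and then 3.88, 3.98 and 4.02 in dcp5-1. Its light arrays in dcp5-1 all exceeded those of control, and the contrast was 0.94 ± 0.25 (adjusted p = 0.378). EXPA4 had a contrast of 0.93 ± 0.31 (adjusted p = 0.774, and 0.258 with the block). In light EXPA4 was higher in dcp5-1 by 0.99 (adjusted p = 0.013). XTH19 (1.63 ± 0.59) and the dim XTH29 (3.48 ± 1.28), named after their values were seen, complete the 6 with an unadjusted limma p under 0.05. XTH19 had an adjusted p of 0.842 without and 0.268 with the block, and 0.00906 from the 3 per-replicate values alone. EXPA8 had one of 0.0653 with the block and 0.0459 with the block and without the dimmest 25%. The expansin-like genes EXLA2 and EXLA3 fell with light in both genotypes with contrasts of -0.01 and -0.21, so members of the family differed.

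Of 21 enzymes of pectin and glucan remodelling 0 passed in the limma fit (0.0352% of all probe sets), 4 had an unadjusted p under 0.05 above 0 (2.48%) and 1 below 0 (2.08%), and the median contrast was -0.01. GH9B13, a glycosyl hydrolase of the endoglucanase family, stood at 4.06, 4.27 and 4.14 in dark control and -1.37, -0.37 and -0.56 in light control. In dcp5-1 it stood at 3.86, 3.88 and 3.68 and then 0.50, 0.61 and -0.48. The light groups overlapped at replicate 3 of dcp5-1, and the contrast of 1.33 ± 0.36 did not pass (adjusted p = 0.442). ATPMEPCRD, a pectin methylesterase, had a contrast of 0.82 ± 0.34, and GH9B7 one of -0.59 ± 0.24. Of 7 tubulins 5 fell with light in control (11.2% of all probe sets) and 5 in dcp5-1 (7.45%), and 0 passed for the contrast (0.0352%). TUB1, a beta-tubulin, had the smallest p of these, with 1.16 ± 0.40 (adjusted p = 0.822, 0.235 with the block and 0.0446 from the 3 per-replicate values alone), and was lower in dcp5-1 in darkness by 1.22 (adjusted p = 0.020).

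No measured gene of the auxin or light signalling lists passed for the contrast. Of 74 listed light signalling and clock names, 3 matched a probe set. Of 16 auxin genes 0 passed in the limma fit (0.0352% of all probe sets), and 1 had an unadjusted p under 0.05 above 0 (2.48%) and 2 below 0 (2.08%). Of their contrasts 8 lay above 0, against 51.3% of all probe sets, and 8 below. WES1, which conjugates auxin to amino acids, fell with light by 1.78 in control and 1.19 in dcp5-1, a contrast of 0.59 ± 0.21 (adjusted p = 0.894). IAA30 and IAA34, auxin-response repressors, had contrasts of -1.43 ± 0.55 and -1.21 ± 0.47. Without centring the contrast of WES1 was -0.31. HYH, a bZIP transcription factor of light signalling, rose by 3.79 in control and 3.29 in dcp5-1, and its contrast was -0.50 ± 0.40. GI, a clock gene, had 0.12 ± 0.47 and FHL, a phytochrome transport gene, -0.25 ± 0.36.

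Most measured nuclear genes of the photosynthetic apparatus rose with light in both genotypes, and 0 of them passed for the contrast in the limma fit. All 3 LHCB4 genes, which encode the CP29 antenna protein, rose in control (9.83% of all probe sets) and in dcp5-1 (7.43%), with median changes of 1.89 and 1.52. LHCB4.3 stood at 0.83, 1.204 and 1.06 in dark control and 3.33, 3.77 and 3.66 in light control. In dcp5-1 it stood at 1.25, 1.73 and 1.75 in darkness and 3.23, 3.44 and 3.02 in light. The dark arrays of dcp5-1 all exceeded those of control, and the contrast was -0.90 ± 0.25 (adjusted p = 0.450), beside -0.86 in total RNA. The other 2 LHCB4 genes had -0.16 ± 0.31 and -0.55 ± 0.52. Of 6 nuclear photosystem and ATP synthase genes 5 rose in each genotype, and ATPC2 had light changes of 0.04 in control and 0.11 in dcp5-1 that did not pass. Of the 6 contrasts 5 lay below 0, against 48.7% of all probe sets, with a median of -0.30, and PSBY and PSAN, small photosystem subunits, had -0.48 ± 0.38 and -0.45 ± 0.45.

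All 10 measured genes of thylakoid assembly and redox control had contrasts below 0, against 48.7% of all probe sets, with a median of -0.36. Of these 0 passed in the limma fit. ATHM2, an m-type thioredoxin, rose by 0.78 in control (adjusted p = 0.0046), while its change in dcp5-1 was 0.12 (adjusted p = 0.775), and the contrast was -0.66 ± 0.27. CaS, a thylakoid calcium-sensing protein, rose by 2.68 and 2.30. The median of this list was 0.17 in replicate 2 and -0.63 in replicate 1. Of 8 chlorophyll and tetrapyrrole genes 6 contrasts lay below 0, against 48.7% of all probe sets. HEME1, a uroporphyrinogen decarboxylase, had -0.85 ± 0.37 and PORB, which reduces protochlorophyllide in light, had -0.58 ± 0.31, with a fall of 1.79 in control and 2.37 in dcp5-1. The 3 Calvin cycle genes had a median contrast of 0.01. Without dark dcp5-1 replicate 1 the medians relative to all probe sets were -0.09 for LHCB4, -0.07 for the photosystem list and -0.16 for the thylakoid list, in place of -0.56, -0.31 and -0.38.

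Flavonoid genes had the lowest list median. All 7 measured members had contrasts below 0 (48.7% of all probe sets), with a median of -0.93. Of them 2 had an unadjusted p under 0.05 (2.08% of all probe sets below 0) and 0 passed in the limma fit. The light change had a median of 3.45 in control and 2.01 in dcp5-1, and 5 of the 7 rose in control (9.83% of all probe sets) and 5 in dcp5-1 (7.43%). UF3GT, a flavonoid glycosyltransferase, stood at -4.39, -4.04 and -2.18 in dark control and 0.22, 2.44 and 1.19 in light control. In dcp5-1 it stood at -2.44, -1.91 and -1.89 in darkness and -0.24, 0.33 and 0.08 in light. The dark values of dcp5-1 lay mostly above those of control and the light values met at 0.22 and 0.33. The contrast was -2.69 ± 0.76 (adjusted p = 0.451), and in total RNA it was -0.37.

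DFR, dihydroflavonol reductase of the anthocyanin branch, stood at -3.52, -2.64 and -2.08 in dark control and 0.06, 2.09 and 0.89 in light control. Mutant levels were -1.92, -1.53 and -2.78 in darkness and -0.76, 0.43 and -0.32 in light. Both conditions overlapped between the genotypes, and the contrast was -1.89 ± 0.86, beside -1.39 in total RNA. CHIL, a chalcone isomerase-like protein, had -1.22 ± 0.65, UGT78D1 -0.69 ± 0.48 and UGT78D2, another flavonoid glycosyltransferase, -0.28 ± 0.33. The total-RNA median of the list was -0.37. Its polysomal median relative to all probe sets was -0.43 without dark dcp5-1 replicate 3 and -1.50 without dark dcp5-1 replicate 1, in place of -0.94, and -0.51 among the brighter probe sets that remain without the dimmest 50%.

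Plastid-encoded genes stood on the other side of 0. Of 43 photosynthesis genes encoded in the plastid genome, 34 had a contrast above 0, against 51.3% of all probe sets, with a median of 0.39, and 0 passed in the limma fit. Only 1 had an unadjusted p under 0.05. The median light change was 0.27 in control and 0.68 in dcp5-1, and the median difference between dcp5-1 and control was -0.64 in darkness and -0.39 in light. Replicates gave 0.19, 0.56 and 0.28, and the total-RNA median was -0.08. Neighbouring plastid genes share transcripts, so the 43 are not separate measurements, and without dark dcp5-1 replicate 3 the median relative to all probe sets was 0.04 in place of 0.38. The 17 probe sets of mitochondrion-encoded genes had a median of 0.12, with 9 above and 8 below 0.

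No measured gene of processing bodies and mRNA decay passed for the contrast. The 7 measured members, LSM1A, LSM1B, LSM3A, LSM3B, LSM6A, LSM6B and UPF3, had contrasts from -0.10 to 0.19. None of them passed for the light change in either genotype or for the genotype difference in either condition in polysomal RNA. LSM proteins form the ring that activates decapping, and UPF3 acts in nonsense-mediated decay. Of 2 translation factors, FUG1, a plastid initiation factor, had -0.71 ± 0.40. The 10 seed storage and late embryogenesis genes had a median contrast of 0.05 and the 3 genes of storage lipid use 0.43, with all 3 above 0 (51.3% of all probe sets) and 0 passing in limma.

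**Figure D5:**
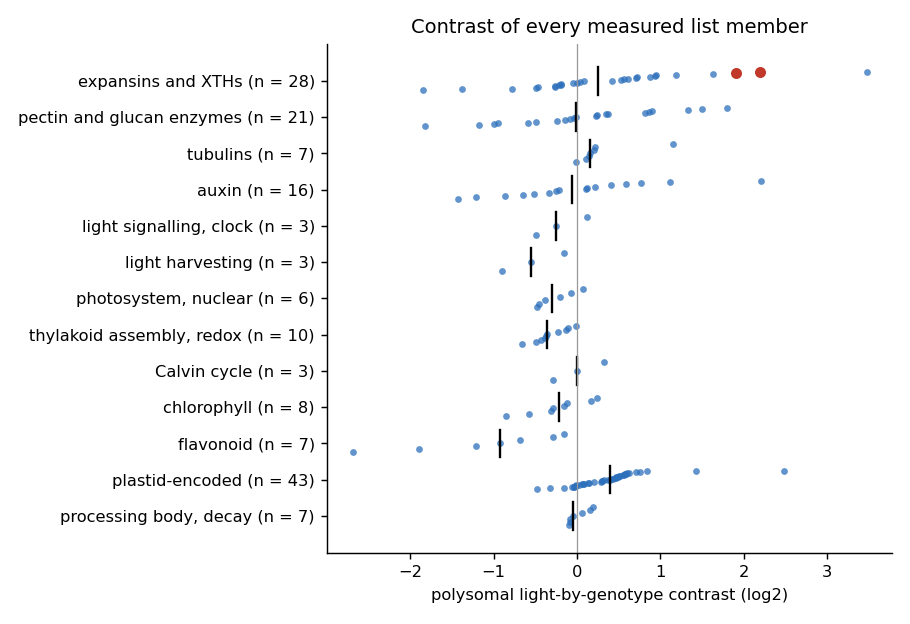
Polysomal light-by-genotype contrast (log2, horizontal) of each measured member of 13 gene lists, with 1 point a probe set and the list median as a bar. Red points, EXPA9 at 2.19 and XTH33 at 1.90, passed the test. The 7 flavonoid and 10 thylakoid points lie below 0, and 34 of 43 plastid-encoded points lie above it.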

How the data were processed

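The authors deposited log2 signals of 24 Affymetrix ATH1 arrays (22810 probe sets), and GCOS 1.4 is named in the submitters' processing notes. How the polysomal arrays were scaled is not given in the sources used here. Their lowest deposited values ran from -2.87 to -0.51, against 0 on the total-RNA arrays, so each carries a factor of its own. Centring takes this factor out, together with any difference in overall polysomal level between the groups that it may record. What the factor stands for was not tested. The members, gene lists and tests were chosen with earlier results of these data known. The 64 control probe sets were left out and each array was centred on its median. A limma model (version 3.58.1, R 4.3.3) estimated 8 group means from the full set of 24 arrays (intensity trend, Benjamini-Hochberg adjustment over 22746 probe sets, threshold 0.05), and the test was run on simulated data first. Of the probe sets 13513 have 1 gene name, 503 several and 8730 none, and 13436 names matched RefSeq (TAIR10.1).

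Named were genes past the threshold whose 3 per-replicate contrasts share a sign (at most 15 in each direction), then up to 12 in each direction by unadjusted p, and up to 4 members of each list by unadjusted p. Lists of cytosolic ribosomal proteins and pollen markers matched no name. Thylakoid assembly and redox control matched 10 probe sets of 76 listed names, and processing bodies and decay 7 of 50. Chlorophyll and tetrapyrrole genes matched 8 of 42, flavonoid genes 7 of 37 and the Calvin cycle 3 of 21. Statements on these lists cover the matched members alone. Biological replicates are stated by the labels. Between same-numbered arrays, the residuals in the 12 directly compared group pairs correlated at 0.06 to 0.32 over all probe sets (10 of 12 over 0.1) and at 0.19 to 0.52 over the brighter 75% (12 of 12). The numbers were therefore treated as pairing the samples, and values with the replicate block are given where they change a call or a count. Within groups, polysomal arrays correlated at 0.932 to 0.954, and 0 pairs were identical. Alternatives were other scalings, filters on dim probe sets, a floor, no trend, array weights, the fraction's arrays alone, the block, and fits without each array or number in turn. The number of arrays limits the precision.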

Additional observations from a re-analysis of the deposited data

Results flagged for a closer look

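The difference of the light change between the genotypes was itself tested in limma, and it passed for 6 named genes in polysomal RNA. These were ECS1 (-3.91 ± 0.44, SE), AT2G45920 (-1.93 ± 0.35), EXPA9 (2.19 ± 0.29), XTH33 (1.90 ± 0.29), ATSBT5.2 (1.67 ± 0.24) and AT4G30170 (1.65 ± 0.29), in log2 units of the change in dcp5-1 minus that in control. In total RNA it passed for ECS1 (-3.45 ± 0.44), AT5G57760 (2.34 ± 0.42), AT4G30170 (1.91 ± 0.29), EXPA9 (1.84 ± 0.29), XTH33 (1.78 ± 0.29) and ATSBT5.2 (1.55 ± 0.24). All per-replicate contrasts of each of these had 1 sign, which the naming rule requires of the polysomal ones.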

How the results depend on the processing

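The replicate block, which pairs arrays by number, gave 36 calls in polysomal and 38 in total RNA, against 8 and 7 without it. On the arrays of 1 fraction the counts were 5 without the block in polysomal RNA, and 22 and 27 with it. With the block as 3 per-replicate values they were 38 and 28, and with the block and without the dimmest 25%, an alternative chosen after seeing the data, 48 and 42. Array weights gave 33 calls in total RNA. Deposited values without centring gave 26 in polysomal RNA, 0 above and 26 below 0, of which 2 are among the 8, and 2 in total RNA. Without centring the contrast turned to -0.306 for WES1, -0.079 for ATPMEPCRD and -0.182 for EXPA18. Without the dimmest 50%, 12 passed, 11 of them above 0. The cause of these differences was not tested.

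Leaving out arrays or replicate numbers gave 0 to 12 calls in polysomal and 0 to 11 in total RNA. Without number 2, 747 total-RNA probe sets had an unadjusted p under 0.05 in limma, and without number 3, 562. The array-median contrast ranged from -1.157 to -0.708. The median of the lowered set relative to all probe sets ranged from 0.104 to 0.159, and that of the raised set from -0.221 to -0.079. The contrast of LHCB4.1 turned to 0.018 to 0.112 without dark control replicate 2, dark dcp5-1 replicate 1 or number 1 (0.034), in a range of -0.354 to 0.112. That of EXPA7 turned to 0.036, 0.095 and 1.128 without dark control replicate 1, light dcp5-1 replicate 1 and number 1 (range -1.917 to 1.128), and EXPA18 to -0.016 without light control replicate 2 (range -0.016 to 1.304). No value on 1 fraction's arrays exists for the difference between fractions.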
